A study of Homo sapiens with 6 samples.

Results

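ALKBH5 was followed through 6 RNA-seq libraries of human liver cancer cells (Huh-7, an established hepatoma line), 3 of them from cells in which the gene itself had been overexpressed. The members were all transcript rows that carry the Entrez identifier of ALKBH5, and 1 of the 80668 transcript rows met that rule, the RefSeq transcript NM_017758.4. The deposited tables therefore do not hold several ALKBH5 isoforms. The value of the single row is also the value of the gene, 1 of 18030 genes, and a division of ALKBH5 among isoforms could not be measured.

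The oeALKBH5 group was 3 libraries from Huh-7 cells given an ALKBH5 overexpression plasmid by electroporation (3 pulses of 1250 V and 20 ms), with RNA taken after 60 h. The control group was 3 libraries from Huh-7 cells labelled wild type and untreated, called parental in the series' design, and grown in the same serum-containing medium. The treatment text of the control samples also describes the plasmid and the pulses, so the labels leave unstated whether controls were electroporated or given an empty plasmid. Neither the promoter nor the extent of the plasmid insert is stated. Libraries are numbered as biological replicates without naming separate cultures, so a p-value here measures the spread between libraries and no more, and that spread may be technical.

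ALKBH5 is an iron- and 2-oxoglutarate-dependent dioxygenase of the AlkB family. It removes the methyl group of N6-methyladenosine (m6A), the common internal mark of mRNA, mainly in the nucleus. FTO is the other m6A demethylase, a complex built on METTL3 and METTL14 writes the mark, and reader proteins of the YTH and IGF2BP families bind it. In liver cancer ALKBH5 has been studied as a regulator of which mRNAs carry the mark.

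ALKBH5 lies on the plus strand of chromosome 17 at chr17:18183078-18209954 (GRCh38, GENCODE release 29). GENCODE lists 3 transcripts there, which differ in what they can encode. ALKBH5-201 has 4 exons over 2748 nt, with a coding part of 1185 nt including the stop codon (394 codons), 5 nt of 5′ UTR and 1558 nt of 3′ UTR. It is the transcript that GENCODE pairs with the RefSeq record, in its earlier version NM_017758.3. ALKBH5-203 uses another first exon and has 162 coding nt, all in the last exon, while ALKBH5-202 is a 2-exon transcript of 2146 nt classed as a retained intron. The coding part takes up 43.1% of ALKBH5-201 and 10.1% of ALKBH5-203.

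The exon junctions of ALKBH5-201 show which stretches would tell these transcripts apart. Each is printed 5′ to 3′ from the GENCODE transcript sequence, with 15 bases on each side, the upstream exon in lower case and the downstream exon in capitals. All 3 lie in the coding part.
Junction of exon 1 and exon 2 (chr17, 18185013 to 18194955): cgtgactgtgctcagTGGATATGCTGCTGA
Junction of exon 2 and exon 3 (chr17, 18195035 to 18206815): catcatcctcaggaaGACAAGATTAGATGC
Junction of exon 3 and exon 4 (chr17, 18206970 to 18208219): tgatgctgcccacagGCCACGGATCCTGGA

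Among 206694 GENCODE transcripts, the first of these sequences occurred in ALKBH5-201 alone, the second also in ALKBH5-203 and the third in all 3 ALKBH5 transcripts. None occurred in another gene. The deposited values are totals per transcript row and give no reads per junction or exon. Reads from the plasmid and from the chromosomal gene therefore cannot be told apart here, nor can a moderate rise in every cell and a larger rise in some of the cells, since the RNA came from whole cultures.

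The oeALKBH5 libraries held 18607084 to 18826479 estimated counts, and the control libraries 19265686 to 19378030. Hepatocyte markers were abundant in both groups, and albumin mRNA (ALB) was at 2340 to 2620 FPKM in oeALKBH5 and 3330 to 3470 FPKM in control. All 10 hepatocyte and hepatoma markers were lower in oeALKBH5 (edgeR, adjusted p under 0.05), with a median log2 fold change of -0.48, where 22% of all 14168 genes tested were lower and 42.8% were called. The values ran from -1.05 for APOA1 to -0.12 for HNF4A (edgeR adjusted p = 0.0298). Calls of these markers under other scalings were not counted. Of the markers of fibroblasts, endothelium and leukocytes, CDH5, VWF and CD3E were at or near 0 (0 to 0.12 FPKM in any library). Others were detected at low levels. PTPRC was at 1.05 to 1.21 FPKM in oeALKBH5 and 0.94 to 1.44 FPKM in control. In the same order, PDGFRB was at 1.64 to 1.9 and 1.76 to 2.02 FPKM. COL3A1 was at 0.4 to 0.53 and 0.31 to 0.48 FPKM, and LUM at 0.82 to 0.93 and 1.08 to 1.31 FPKM. PECAM1 was at 2.89 to 3.17 and 4.47 to 5.32 FPKM. CD68, a lysosomal protein that is not confined to macrophages, was at 80.9 to 96.0 FPKM in oeALKBH5 and 80.7 to 82.4 FPKM in control. The collagen gene COL1A1 rose (log2 fold change 1.07, adjusted p = 0.00239) at levels under 1 FPKM, and LUM (-0.55, adjusted p = 0.0162) and PECAM1 (-0.70, adjusted p = 3.82e-06) fell. The part of these markers in the results below was not tested.

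The ALKBH5 row held 3247, 2562 and 2115 estimated counts in oeALKBH5 replicates 1, 2 and 3, against 1313, 1406 and 1422 in control replicates 1, 2 and 3. The groups did not overlap, and the lowest oeALKBH5 library stood well above the highest control. Counting error alone was 1.75% to 2.17% of the value in oeALKBH5 and 2.65% to 2.76% in control libraries. After TMM scaling, which corrects for differences in library composition, the level was 169, 133 and 110 CPM, estimated counts scaled to a common library total, in oeALKBH5 and 70.5, 74.2 and 75.5 CPM in control. Relative to the control mean the 3 oeALKBH5 libraries were 2.3-fold, 1.81-fold and 1.5-fold higher. In absolute terms they held 95.3, 59.5 and 36.9 CPM more than that mean.

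**Figure D1:**
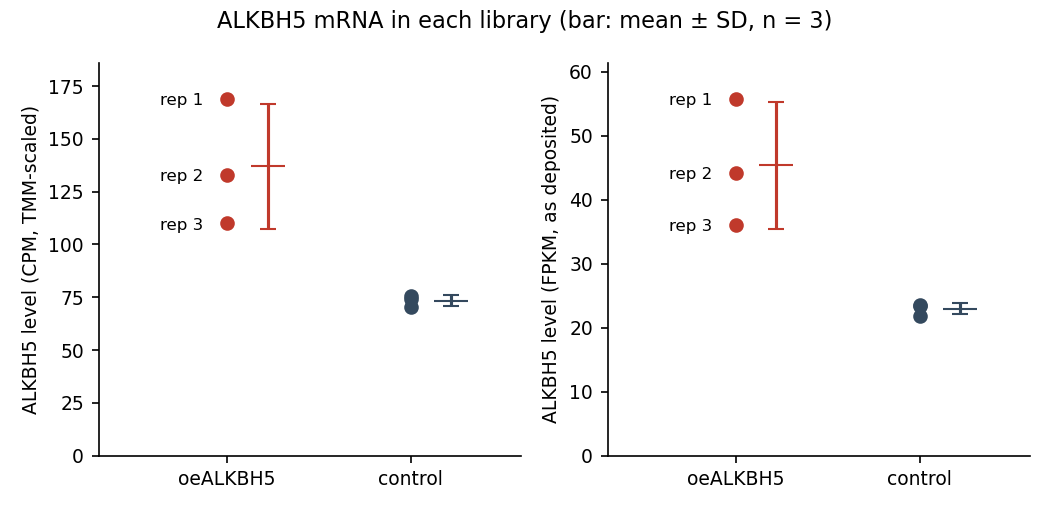
ALKBH5 level in each library, as TMM-scaled CPM (left) and as the authors' FPKM (right); points are libraries and bars show the mean ± SD of 3 oeALKBH5 or 3 control libraries. The oeALKBH5 libraries spread from 110 to 169 CPM, all above the controls, which sit between 70.5 and 75.5 CPM.

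ALKBH5 averaged 137 ± 29.5 CPM over the oeALKBH5 libraries and 73.4 ± 2.56 CPM over the controls (SD, n = 3 each). Summed per gene, the edgeR log2 fold change was 0.90 (SE 0.177), 1.87-fold, with an adjusted p of 0.0154 over 14168 genes, and all 3 oeALKBH5 libraries were higher than all 3 controls. At that threshold 42.8% of all genes tested were called, with 20.8% higher and 22% lower. An exact two-sided permutation test of the CPM over libraries gave p = 0.1, the smallest that 3 against 3 allows. The gene-level call ended without control replicate 2 (adjusted p = 0.0529) or control replicate 3 (0.0589), while the log2 fold change stayed between 0.73 and 1.04 over the 14 alternatives.

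The same row tested as a transcript gave the same size and a different call. Its log2 fold change was 0.91 (SE 0.160). The unadjusted edgeR p was 0.00186, below the 0.00512 of the gene fit. The edgeR adjusted p was 0.087 over 45502 transcripts, which misses the threshold, so the calls differ through the adjustment. Calls were rare in that table, at 1.01% of transcripts and 0.281% higher. With DESeq2 the transcript passed (log2 fold change 0.91, adjusted p = 5.53e-07). In the other 14 alternatives it did not, with adjusted p from 0.0576 to 0.332.

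In the authors' FPKM, which divides by transcript length and library depth, the row stood at 55.81, 44.27 and 36.12 FPKM in oeALKBH5 and 21.91, 23.37 and 23.6 FPKM in control. The means were 45.4 ± 9.89 FPKM and 23.0 ± 0.917 FPKM (SD, n = 3 each). On log2(FPKM + 1) the difference was 0.93 (SE 0.139, limma adjusted p = 0.00162 over 12016 genes, of which 45.9% were called). Tested among 25122 transcripts, of which 4.04% were called, the limma adjusted p was 0.0325 (SE 0.152). That call ended with no filter on low values (adjusted p = 0.112) and without oeALKBH5 replicate 2 (0.103) or control replicate 1 (0.110), 2 (0.105) or 3 (0.108).

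The FPKM table adds no separate measurement of ALKBH5. Its values equal the estimated count divided by the summed table total and by one length, 3109 to 3111 nt in each of the 6 libraries, a spread of 0.0368%. That length is above the 2748 nt of ALKBH5-201 in GENCODE. The length of mRNA made from the plasmid is not stated. If it differs, FPKM in oeALKBH5 misstates the level per length, and so do ranks and ratios built on it. The ALKBH5 estimated counts were whole numbers in all 6 libraries. Among genes with 1 transcript row, 60.1% of values above 0 were whole within 0.005, against 3.53% in genes with several rows, where the authors' processing divided reads among rows.

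A single row was common: 5196 genes (28.8%) had only 1, and the median gene had 3. Within the AlkB family, ALKBH1 and ALKBH3 also had 1 row, while ALKBH2 and ALKBH8 had 7 each and FTO had 18.

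ALKBH5 was among the larger rises at its level of expression. Over all 14168 genes tested, 258 had a larger log2 fold change, 231 of them past the threshold. Of 4707 genes with a mean of at least 50 CPM, 8 rose more. They included, chosen after their values were seen, the metallothioneins MT1E (2.73), MT1F (1.95) and MT2A (1.64), the LIM protein CSRP1 (1.36), TMCC1 (1.06), MXRA8 (1.0) and the tropomyosin TPM2 (0.94). By FPKM, ALKBH5 ranked 1525, 1952 and 2411 of 18030 genes in oeALKBH5 replicates 1, 2 and 3, against ranks 3688, 3508 and 3457 in the controls.

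**Figure D2:**
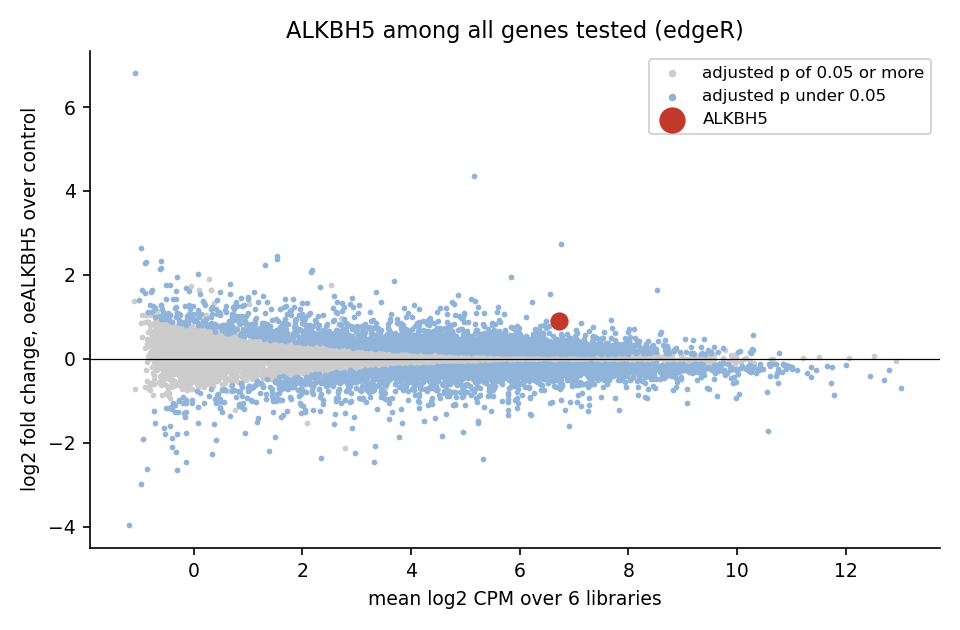
Log2 fold change of oeALKBH5 over control (vertical axis) against mean log2 CPM (horizontal axis) for 14168 genes tested with edgeR, coloured by adjusted p. ALKBH5, at a log2 fold change of 0.90, lies near the upper edge of genes of similar level.

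The overexpressing libraries differed far more in ALKBH5 than the controls did. The coefficient of variation was 21.4% in oeALKBH5 and 3.49% in control, and the highest library was 1.53 times the lowest in oeALKBH5, against 1.07 times in control. Among the 4707 genes with at least 50 CPM, the median coefficient of variation was 4.42% in oeALKBH5 and 2.91% in control. ALKBH5 was the fifth most variable of these genes in oeALKBH5, while 1683 genes varied more than it did in control. The quasi-dispersion of ALKBH5 in the gene fit, a measure of spread beyond the fitted trend, was 9.72 against a median of 0.807, above that of 99.6% of genes. In the transcript fit the same row had 0.426 against a median of 0.291, above that of 55.8% of transcripts. The extreme quasi-dispersion is therefore specific to the gene fit, while the ALKBH5 counts and their spread were the same in both fits. In the gene fit without the robust option, a setting chosen after seeing the data, the edgeR adjusted p was 7.58e-06 at the same log2 fold change.

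By FPKM, with the limit set by the unstated length of plasmid mRNA, ALKBH5 moved up among the m6A genes. Of 24 genes, ALKBH5, FTO, 11 writers and 11 readers, it had the sixth highest mean FPKM in oeALKBH5 (45.4), between METTL5 (47.1 ± 5.02) and YTHDF1 (44.3 ± 1.01). Its SD of 9.89 FPKM spans both of these neighbours, IGF2BP1 (51.2) and METTL3 (38.6). In control it was the twelfth (23.0), between YTHDF3 (24.6 ± 1.02) and IGF2BP3 (16.3 ± 0.331), whose libraries lay below. The lowest control library of YTHDF3 and the highest of ALKBH5 were both at 23.6 FPKM. The highest was HNRNPA2B1, at 493 FPKM in oeALKBH5 and 416 FPKM in control, and the lowest RBM15, at 3.50 and 2.21 FPKM.

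The ratio of ALKBH5 to the other demethylase gene, FTO, was 7.17, 5.40 and 4.37 in FPKM in oeALKBH5 and 2.88, 2.94 and 2.90 in control. FTO itself was at 7.78, 8.20 and 8.27 FPKM in oeALKBH5 and 7.61, 7.96 and 8.15 FPKM in control, and its groups overlapped (log2 fold change -0.02, SE 0.0608, edgeR adjusted p = 0.824). The ratio to the writer METTL3 was 1.56, 1.14 and 0.88 in oeALKBH5, against 0.566, 0.575 and 0.579 in control. In control every library thus held less ALKBH5 than METTL3 mRNA per length, and in oeALKBH5 replicates 1 and 2 held more. For oeALKBH5 this takes plasmid mRNA to have the length used in the FPKM, which is not known.

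Of 37 genes in the lists of writers, readers, AlkB family members and ALKBH5 partners, 12 rose and 3 fell, 40.5% beside the 42.8% of all genes tested, a share close to that background. With library size alone, 18 rose and 1 fell, but that scaling also moved the whole table, to 30.1% of all genes higher and 14.4% lower. With DESeq2, 9 rose and 1 fell, beside 16.7% and 18.6% of all genes. The count past the threshold was 9 in place of 15 without oeALKBH5 replicate 2, control replicate 1 or control replicate 3. The median log2 fold change of the 37 genes was 0.06 and that of all genes 0.0062. ALKBH5's own value of 0.90 was above that of each of these genes, and the nearest was RBM15.

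Among the 11 writers, 3 rose and 1 fell (3 and 0 scaled by library size only), with a median of 0.00039. The share called was 36.4%, below the 42.8% of all genes. RBM15, an RNA-binding subunit that recruits the writer complex, was at 3.93, 3.56 and 3.01 FPKM in oeALKBH5 and 2.15, 2.22 and 2.25 FPKM in control, with no overlap (log2 fold change 0.58, SE 0.107, edgeR adjusted p = 1.98e-04). ZC3H13, a scaffold of the complex, rose by 0.19 (SE 0.0574, adjusted p = 0.0105; 0.0889 without control replicate 3), and WTAP, the regulatory subunit, rose by 0.12 (SE 0.0471, adjusted p = 0.0399). The WTAP call ended without oeALKBH5 replicate 2 or 3 or without any 1 control library (adjusted p from 0.0615 to 0.145), with no filter (0.0652) and with DESeq2 (0.0588). METTL3, the catalytic subunit, fell (-0.14, SE 0.0558, adjusted p = 0.0448). That call ended without oeALKBH5 replicate 1 or 2 or without any 1 control library, with adjusted p from 0.0638 to 0.167. It also ended with library size alone (log2 fold change -0.06, adjusted p = 0.37), with a mean count of at least 50 (0.0542) and with DESeq2 (0.0854).

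Among the 11 readers, 4 rose and 0 fell, with a median of 0.08. This was again 36.4% called, against 42.8% of all genes. They were IGF2BP1, IGF2BP2, IGF2BP3 and the nuclear ribonucleoprotein gene HNRNPA2B1. IGF2BP2, an mRNA-stabilising reader, was at 34.7, 31.9 and 30.3 FPKM in oeALKBH5 and 25.9, 26 and 25 FPKM in control (log2 fold change 0.25, SE 0.0519, edgeR adjusted p = 5.95e-04). IGF2BP1 rose by 0.14 (SE 0.0422, adjusted p = 0.00939; 0.0603 without control replicate 2). IGF2BP3 (0.16, adjusted p = 0.0269) lost its call without oeALKBH5 replicate 2 or any 1 control library (0.0598 to 0.124) and with DESeq2 (0.0589), and HNRNPA2B1 (0.18, adjusted p = 0.0149) without oeALKBH5 replicate 2 (0.0541) or control replicate 1 (0.0925). None of the 5 YTH-domain readers passed with TMM scaling. With library size alone 8 of 11 readers rose, under a scaling that called 30.1% of all genes higher. They included YTHDF2 (edgeR adjusted p = 0.0128) and YTHDF3 (0.0265).

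In the rest of the AlkB family, 1 of 8 genes rose and 2 fell (1 and 1 scaled by library size only, 0 and 1 with DESeq2), with a median of -0.02. That was 37.5% called, against 42.8% of all genes. The DNA repair dioxygenase ALKBH2 was at 9.36, 10.4 and 10.2 FPKM in oeALKBH5 and 8.18, 7.37 and 8.30 FPKM in control (log2 fold change 0.26, SE 0.1, edgeR adjusted p = 0.0391). The mitochondrial ALKBH7 was at 36.6, 39.4 and 40.7 FPKM in oeALKBH5, below all controls at 45.3, 44.4 and 43.0 FPKM (-0.26, SE 0.0617, adjusted p = 0.00175). ALKBH6 also fell (-0.20, SE 0.0757, adjusted p = 0.0364) with groups that overlapped. The ALKBH2 call ended without oeALKBH5 replicate 2 or 3 or without any 1 control library (adjusted p from 0.0764 to 0.126), with no filter (0.0561) and with DESeq2 (0.14). The ALKBH6 call ended without oeALKBH5 replicate 2 or 3 or control replicate 1 or 3 (0.060 to 0.223), with library size alone (0.199) and with DESeq2 (0.0828).

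Of 7 partners and regulators of ALKBH5 known from human cells, 4 rose and 0 fell, with a median of 0.19, where 20.8% of all genes were higher and 22% lower. HIF1A, the oxygen-regulated factor that has been linked to ALKBH5 transcription, was at 133, 121 and 106 FPKM in oeALKBH5 and 90.2, 94.7 and 90.7 FPKM in control (log2 fold change 0.30, SE 0.0622, edgeR adjusted p = 0.00105). The paraspeckle protein PSPC1 was at 51.8, 57.1 and 56.1 FPKM in oeALKBH5 and 44.5, 42.4 and 44.2 FPKM in control (0.24, SE 0.0532, adjusted p = 0.00108). The other two that rose were RBM33, an ALKBH5-binding protein, and PIAS4, a SUMO ligase. EPAS1, which encodes the second HIF alpha subunit, was at -0.05 (adjusted p = 0.467), and the helicase DDX3X at 0.04 (adjusted p = 0.546). With library size alone 6 of the 7 rose, beside 30.1% of all genes.

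**Figure D3:**
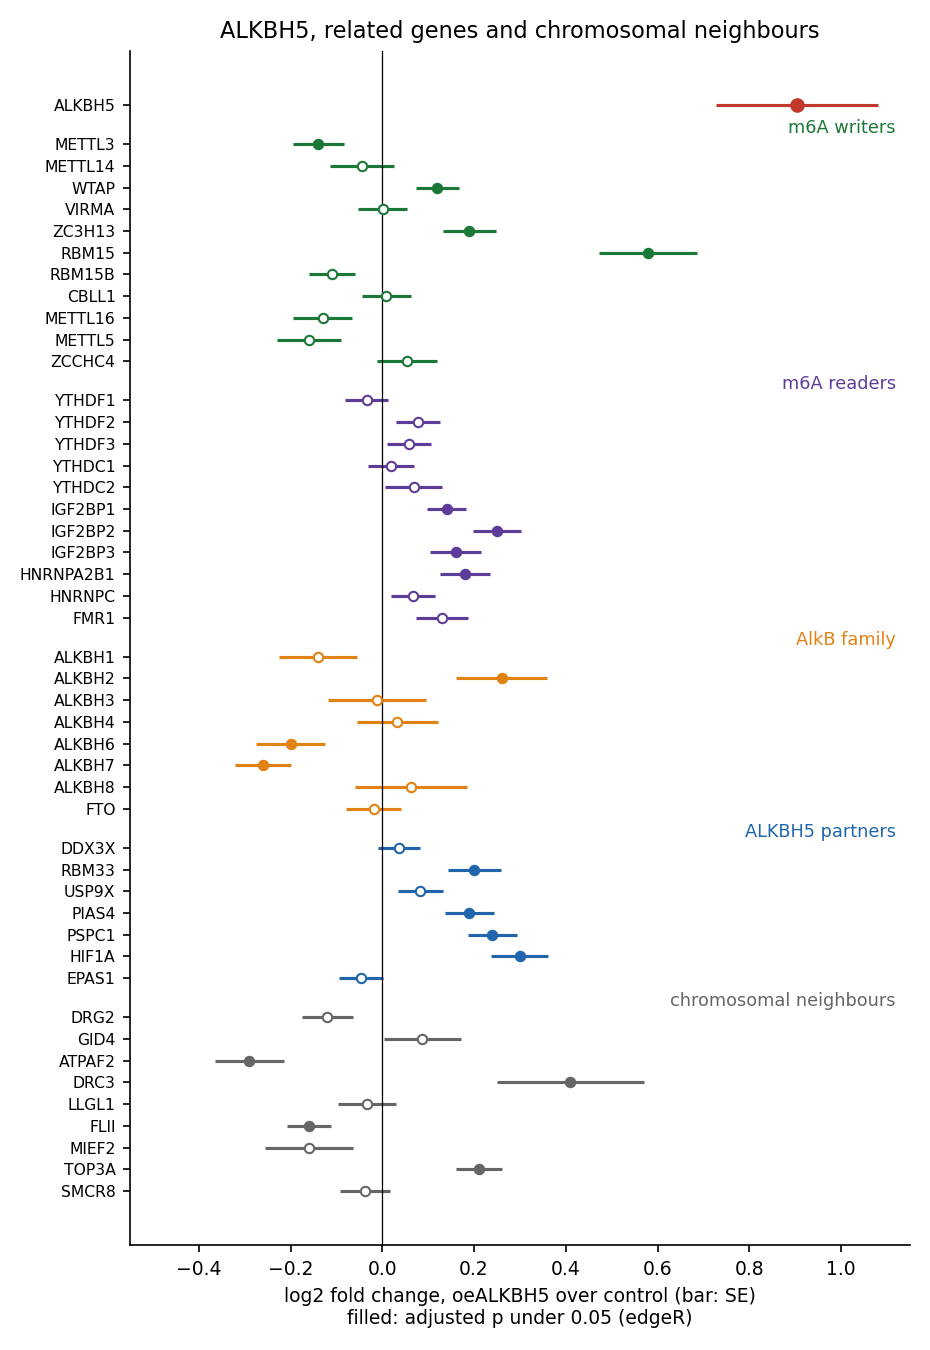
Log2 fold change of oeALKBH5 over control (horizontal axis, bars are SE from 3 against 3 libraries, edgeR) for ALKBH5, the genes of 4 related lists and the tested chromosomal neighbours; filled points passed an adjusted p of 0.05. ALKBH5 at 0.90 lies to the right of every other gene shown, followed by RBM15 at 0.58.

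No tested gene beside ALKBH5 on chromosome 17 had a log2 fold change as large as its 0.90. Of the 5 nearest protein-coding genes on each side, 9 were tested, 2 rose and 2 fell (44.4% called, beside 42.8% of all genes), with a median log2 fold change of -0.04. With library size alone 2 rose and 1 fell, and 2 in all passed without oeALKBH5 replicate 2 or control replicate 1. The nearest gene upstream, the inner-ear myosin MYO15A, was at 0.03 to 0.06 FPKM in oeALKBH5 and 0.02 to 0.06 FPKM in control and was not tested. The nearest gene downstream, the polarity gene LLGL1, was at 14.6, 13.3 and 12.7 FPKM in oeALKBH5 and 13.9, 12.3 and 13.1 FPKM in control (-0.03, SE 0.0632, edgeR adjusted p = 0.704).

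The next genes were small in change on both sides. Upstream, the GTP-binding protein gene DRG2 was at -0.12 (adjusted p = 0.078), the ubiquitin ligase receptor GID4 at 0.09 (0.424), the ATP synthase assembly factor ATPAF2 at -0.29 (SE 0.0753, 0.0038) and the ciliary gene DRC3 at 0.41 (SE 0.161, 0.0463). Downstream, the actin-binding FLII was at -0.16 (SE 0.0488, 0.0113), the mitochondrial MIEF2 at -0.16 (0.201), the topoisomerase TOP3A at 0.21 (SE 0.0501, 0.00205) and the autophagy gene SMCR8 at -0.04 (0.601), all edgeR log2 fold changes with adjusted p. DRC3, at 1.55 ± 0.0862 FPKM in oeALKBH5 and 1.29 ± 0.200 FPKM in control (SD, n = 3 each), lost its call without oeALKBH5 replicate 2 or 3 or control replicate 1 or 2 (adjusted p from 0.0564 to 0.195), with no filter (0.0533), limma-voom (0.0506) or DESeq2 (0.155). FLII lost its call without oeALKBH5 replicate 2 (0.0609) or control replicate 1 (0.0545) and with library size alone (0.177).

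The profile of ALKBH5 over the 6 libraries was compared with those of 10480 genes whose log2 CPM averaged 3 or more. Each profile was centred on its own mean, and likeness was the root mean square difference over the 6 libraries, in log2 units. This is a description and carries no test. The most similar profile was that of BHLHE40, a basic helix-loop-helix repressor that acts in the clock and in the hypoxia response, with a difference of 0.0778. It was at 139, 106 and 102 CPM in oeALKBH5 and 63.2, 62.5 and 60.5 CPM in control.

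Next came LOX, the lysyl oxidase that cross-links collagen (0.0829), and the transcription factor CREB5 (0.0853). LOX was at 130, 104 and 97 CPM in oeALKBH5 and 62.3, 60.5 and 66.6 CPM in control. The others were the collagen receptor subunit ITGA2 (0.0883), the collagen prolyl 3-hydroxylase P3H2 (0.0892), which like ALKBH5 uses 2-oxoglutarate, the receptor NOTCH3 (0.0917), the glycolipid anchor mannosyltransferase PIGZ (0.0938) and the arginase ARG1 (0.0979). The choice by likeness fixes that these 8 genes share the direction and the library order of ALKBH5, and nothing is read from either.

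The 4 profiles nearest to the mirror image of ALKBH5 were those of the linker histone H1-2 (0.0754), SMLR1 (0.0805), the lipid droplet hydrolase PNPLA3 (0.0856) and the signal peptidase subunit SEC11C (0.0859). H1-2 was at 36.7, 48.5 and 55.4 CPM in oeALKBH5 and 82.7, 75.5 and 74.4 CPM in control. SMLR1 was at 36.2, 43.5 and 47.1 CPM in oeALKBH5 and 81.2, 81.6 and 80.4 CPM in control. Their direction and order are likewise set by the choice.

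**Figure D4:**
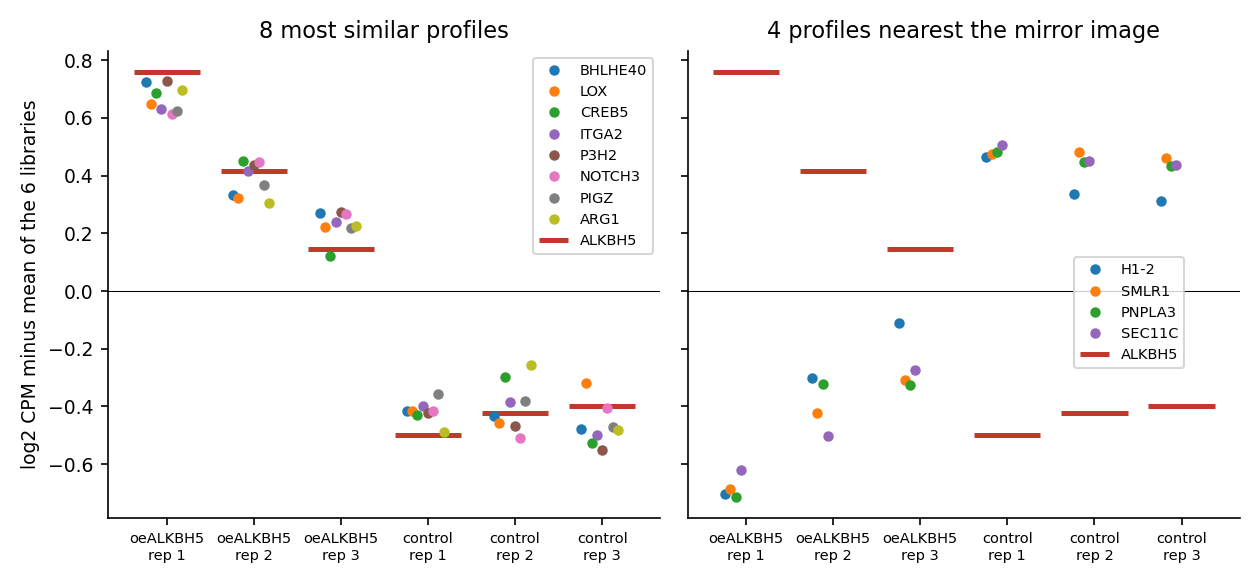
Log2 CPM minus the mean of the 6 libraries (vertical axis) in each library (horizontal axis) for ALKBH5 (red bars) and, as points, the 8 genes with the most similar profile (left) or the 4 nearest to its mirror image (right). ALKBH5 stands at 0.76, 0.42 and 0.15 in oeALKBH5 replicates 1, 2 and 3 and at -0.50 to -0.40 in the controls, and the points on the left lie close to it.

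The order of the oeALKBH5 libraries in ALKBH5, with replicate 1 highest and replicate 3 lowest, was also the most frequent order among genes that rose. It was found in 1070 of 2948 such genes (36.3%), while the other 5 orders held 8.34% to 18% each. Among 3114 genes that fell, the opposite order, with replicate 1 lowest, was the most frequent (1125 genes, 36.1%), with 8.38% to 17% in each other order. Among the 8106 genes that did not pass, these 2 orders held 20.9% and 21.0%. Genes of one library are not independent of each other, ALKBH5 is itself one of the genes that rose, and no test was made.

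With library size alone in place of TMM, 4266 genes rose and 2047 fell, and the shares were 37.2% and 34.5%. Among genes that changed by 1 or more on the log2 scale, they were 35.1% of 174 that rose and 20.9% of 129 that fell. For those 129 genes the opposite order barely stood out, since the other 5 orders held 12.4% to 19.4%, ALKBH5's own order among them at 19.4%. These settings were chosen after seeing the data. The median size of the response followed the same order, but these genes were called from the same libraries, so this is no separate result. Genes that rose had a median log2 difference from the control mean of 0.37, 0.33 and 0.30 in oeALKBH5 replicates 1, 2 and 3. Genes that fell had -0.33, -0.30 and -0.25. ALKBH5 itself was at 1.2, 0.86 and 0.59, and a relation between its level and the response was not tested. Library totals did not follow that order (18708513, 18607084 and 18826479), but the number of genes with a count above 0 did (16855, 16844 and 16785), and its part in the pattern was not tested.

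**Figure D5:**
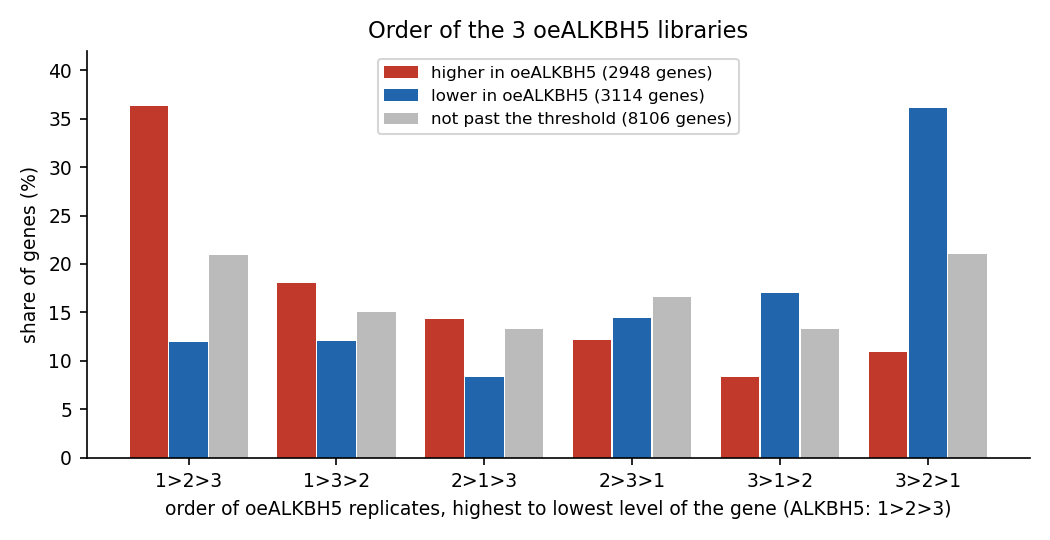
Share of genes (vertical axis, percent) with each order of the 3 oeALKBH5 replicates from highest to lowest (horizontal axis), for genes higher, lower or not past the threshold in oeALKBH5 (edgeR). The order of ALKBH5 itself, 1>2>3, held 36.3% of genes that rose, and the opposite order held 36.1% of genes that fell.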

How the data were processed

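For each RefSeq transcript the authors deposited an estimated count, with no scaling between libraries, and an FPKM value. The submitters' processing notes name GRCh38.p13, RSEM 1.2.8, HISAT2 2.1.0 and Bowtie2 2.2.5, but the roles of these, the filters and any use of strand in counting were not given there. Estimated counts were summed per Entrez gene and rounded. Symbols were found for 17881 genes, and the 149 without one took 0.0264% of counts. Genes and transcripts were fitted separately over the whole tables with edgeR 4.0.16 (R 4.3.3; TMM, minimum count 10, robust quasi-likelihood, group as the single term, two-sided, Benjamini-Hochberg, threshold 0.05). SE is the size of the log2 fold change divided by the root of the F statistic. FPKM was tested as log2(FPKM + 1) with limma 3.58.1 where 3 libraries reached an FPKM of 1; the added 1 shrinks the fold changes of weakly expressed genes. DESeq2 1.42.0 and limma-voom were alternatives. The permutation test used scipy 1.17.1 and figures matplotlib 3.10.9. The edgeR fits with and without a replicate block, DESeq2, limma-voom and limma were run at their main settings on simulated counts with known changes. The other settings were not simulated. Every simulated gene had the same spread between libraries, so a gene as variable as ALKBH5 in oeALKBH5 was not covered.

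ALKBH5, its context lists, the neighbours and the likeness rule were chosen with earlier results of these data known. The named genes were ALKBH5, up to 2 genes that rose and 2 that fell per list by p, FTO, the 5 nearest protein-coding genes on each side (from the RefSeq table of GRCh38.p14, used for names and neighbours), the 8 genes most like ALKBH5 and the 4 nearest to its mirror image (log2 CPM, prior count 2); others were named after their values were seen. The planned test of transcript usage could not be made with 1 ALKBH5 row.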

Additional observations from a re-analysis of the deposited data

How the results depend on the processing

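ALKBH5 was higher in oeALKBH5 under every alternative tried. Per gene, its log2 fold change was 0.73 to 1.04 without 1 library and 0.89 with the replicate block, which missed the threshold (adjusted p = 0.0538), and 11 of 14 alternatives passed. Per transcript, DESeq2 alone of 15 alternatives passed (0.91). On FPKM all 9 gene alternatives passed (adjusted p up to 0.0131) and 3 of 9 transcript alternatives did. The transcript FPKM value was 0.93 with no filter (adjusted p = 0.112) and with the replicate block (0.104), neither of which passed, and 0.78 to 1.08 without 1 library. Context genes past the threshold numbered 9 to 15 of 37 and neighbours 2 to 5 without 1 library, against 15 and 4 with all; with the replicate block they were 17 and 5. Of 58 named and listed genes under 13 alternatives each, 694 of 754 values kept their side of the threshold, 48 lost the call, 12 gained it and 0 called values changed sign. Same-numbered libraries did not deviate together (correlations -0.0193, 0.0162 and -0.0123). The labels do not say whether they were prepared in pairs, and these correlations cannot settle it. Counting error for ALKBH5 was 1.75% to 2.76% of its value.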

Other observations

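Some genes with at least 50 CPM varied more than ALKBH5 (coefficient of variation 21.4%) between the oeALKBH5 libraries. They included the extracellular matrix gene TINAGL1 (26.2%), DERPC (24.7%) and the heat shock gene HSPA1B (23.4%), named after their values were seen. HSPA1B shares reads with its near-identical copy HSPA1A, so its value is uncertain.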
